A study of Rattus norvegicus with 12 samples.

Results

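The cell adhesion genes described here are 9 genes taken by name: Vcam1, Icam1, Alcam and Ncam1, which encode adhesion molecules of the immunoglobulin superfamily, and Cdh1, Cdh2, Cdh3, Cdh11 and Cdh13, which encode cadherins. Of the 9, 8 had a row under their symbol in the authors' table of normalized counts, and all 8 were among the 14601 genes tested, of 43360 in the count table. No row there carries the symbol Cdh1, the gene of epithelial E-cadherin, so it was not analysed here.

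The genes were measured by poly(A) RNA sequencing in NRK-49F, a fibroblast line from normal rat kidney, with 12 libraries in 4 groups of 3. The cells carried either a plasmid for Flag-tagged human HDAC1, a histone deacetylase, or the empty vector pcDNA3.1, and were kept for 24 hours in medium with 0.5% serum, either with 2 ng/ml TGFB1 or without it (vehicle). The groups were HDAC1 with TGFB1, empty vector with TGFB1, HDAC1 with vehicle, and empty vector with vehicle. The groups follow the sample titles, since the number in the labelled treatment name goes up from one sample to the next. All groups are transfected cells of 1 line, and the labels do not say whether replicates came from separate cultures, so p-values measure the spread between libraries, which may be technical.

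Cadherins are calcium-dependent receptors that bind cadherins of the same kind on the next cell and are tied to actin through catenins. N-cadherin (Cdh2) and cadherin-11 (Cdh11) are typical of mesenchymal cells, P-cadherin (Cdh3) is found mainly in epithelia, and T-cadherin (Cdh13) has no cytoplasmic tail and sits in the membrane by a lipid anchor. VCAM1 and ICAM1 are receptors for leukocyte integrins and are induced by inflammatory signals through NF-kB, ALCAM binds CD6 on T cells and itself on other cells, and NCAM1 joins neural and other cells to one another. TGFB1 is the cytokine best known for turning fibroblasts into matrix-producing myofibroblasts, and a switch from E-cadherin to N-cadherin is a classical mark of mesenchymal transition in epithelia.

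Library totals ran from 18397093 to 36652084 counts. Levels are given as CPM, counts scaled to the size of each library, and are compared within a gene only, since they are not corrected for transcript length. As a check of the labels, Hdac1 averaged 464 ± 43.5 CPM with HDAC1 and TGFB1 against 267 ± 21.1 CPM with empty vector and TGFB1, and 421 ± 43.3 CPM with HDAC1 and vehicle against 210 ± 4.13 CPM with empty vector and vehicle (SD, n = 3 each). Reads of rat and plasmid-borne human HDAC1 cannot be told apart here. The gene Hdac1l, named as Hdac1-like, was at 802 to 1367 CPM in the HDAC1 libraries and 0.530 to 15.1 CPM in the empty vector libraries. Fibroblast markers with a row (8 of 10, among them Col1a1, Pdgfra and Vim) summed to between 11670 and 25280 CPM, leukocyte markers (2 of 10, Cd68 and Csf1r) to between 2.43 and 10.6 CPM, and epithelial markers (4 of 10, Krt8, Krt19, Cldn4 and Ovol1) to between 1148 and 1763 CPM. Heart and brain transcripts (38 genes) stood apart in some libraries: they summed to 184.5 to 200.3 CPM with HDAC1 and TGFB1, 537.1 to 640.8 CPM with empty vector and TGFB1, 298.6 to 518.6 CPM with HDAC1 and vehicle, and 85.7 CPM in replicate 1 of empty vector with vehicle against 464.3 and 487.1 CPM in its other replicates. Ncam1, Cdh2 and Cdh13 are also expressed in heart or brain, so the edgeR comparisons were also fitted with this sum as a covariate, and those that use empty vector with vehicle also without that replicate. Between the TGFB1 groups the sum did not overlap, so in that comparison the covariate and the plasmid cannot be told apart. Within each transfection the sum did not overlap between TGFB1 and vehicle either, so there the covariate and TGFB1 cannot be told apart. Why calls ended under the covariate was not tested.

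The promoters of Vcam1 and Icam1 are shown because these genes fell with TGFB1 and are textbook targets of NF-kB. Each line gives the 250 bases before the RefSeq start in the assembly GRCr8, read 5′ to 3′ along the gene's strand, at chr2:206742784-206743033 (minus strand) for Vcam1 and chr8:27829595-27829844 (plus strand) for Icam1. Capitals mark matches to GGGNTTNCC or GGAAATTCC, spellings of the NF-kB site that were searched on both strands and were picked with these windows in view.
Vcam1: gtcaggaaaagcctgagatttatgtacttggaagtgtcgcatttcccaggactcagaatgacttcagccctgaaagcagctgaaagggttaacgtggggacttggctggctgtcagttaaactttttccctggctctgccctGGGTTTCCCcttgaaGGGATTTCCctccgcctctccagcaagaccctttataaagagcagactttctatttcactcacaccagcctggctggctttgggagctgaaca
Icam1: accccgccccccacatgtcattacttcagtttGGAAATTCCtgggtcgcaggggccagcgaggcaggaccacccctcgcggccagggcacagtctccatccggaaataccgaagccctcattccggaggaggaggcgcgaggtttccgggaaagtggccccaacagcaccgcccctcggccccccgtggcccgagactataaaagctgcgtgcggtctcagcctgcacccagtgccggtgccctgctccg

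The Vcam1 window held 2 matches to GGGNTTNCC, at -108 to -100 and -93 to -85 from the start, side by side and 6 bases apart. At least 2 such matches were present in 0.215% of the 33465 promoter windows of this length, and at least 1 in 4.04%. The Icam1 window held GGAAATTCC at -218 to -210, which 0.287% of the windows held, and a STAT-type match, TTCNNNGAA, at -107 to -99 (7.67% of the windows). Both windows held TATAAA, at -60 to -55 in Vcam1 and -53 to -48 in Icam1 (12.9% of the windows on either strand), and in Vcam1 it overlapped a copy on the other strand. Neither held GTCTAGAC, the palindromic SMAD element (0.173% of the windows), or CACCTG, an E-box bound by ZEB and SNAIL factors (15.9%). These matches describe letters only. Of the 9 genes, the table of promoters also held Alcam, in which none of the searched motifs was found.

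What TGFB1 did to the adhesion genes was asked first. All 8 genes changed, in both transfections: Ncam1 and Cdh2 rose, while Vcam1, Icam1, Alcam, Cdh3, Cdh11 and Cdh13 fell. Ncam1 rose by over 3-fold and Cdh2 by over 2-fold, and Vcam1, Icam1 and Alcam had the largest falls. In bulk RNA, fewer cells of a kind and less RNA per cell cannot be told apart. For comparison, edgeR called 49.1% of all genes tested with HDAC1 (24.9% higher and 24.2% lower) and 50.9% with empty vector (25.9% higher and 25.0% lower), so a call by itself was common. In each transfection the TGFB1 libraries of all 8 genes did not overlap the vehicle libraries, as for 60.7% of all genes with HDAC1 and 56.0% with empty vector. The median log2 fold change of the 8 genes was -0.56 with HDAC1 and -0.59 with empty vector, against -0.02 and 0.01 over all genes. The calls of the 8 genes held in edgeR fits without any single library and in every alternative run.

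Among the leukocyte receptors, Vcam1 (ENSRNOG00000014333) was at 17.4, 15.3 and 15.2 CPM with HDAC1 and TGFB1, against 50.7, 53.1 and 59.1 CPM with HDAC1 and vehicle. With empty vector it was at 15.6, 14.9 and 14.98 CPM with TGFB1, against 42.3, 43.4 and 37.8 CPM with vehicle. All TGFB1 libraries lay far below all vehicle libraries. The level was 3.41-fold lower with TGFB1 in HDAC1 cells (log2 fold change -1.77 ± 0.08 SE, adjusted p by edgeR = 5.90e-13) and 2.71-fold lower in empty vector cells (-1.44 ± 0.09 SE, edgeR adjusted p = 1.77e-11).

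Icam1 (ENSRNOG00000020679) was at 174.5, 173 and 180.3 CPM with HDAC1 and TGFB1, against 330, 332 and 338 CPM with HDAC1 and vehicle. With empty vector it was at 173, 176 and 172 CPM with TGFB1, against 417, 394 and 394 CPM with vehicle. The libraries of a group were within a few percent of each other (coefficient of variation 1.20% to 3.23%), and the TGFB1 and vehicle groups did not overlap. Icam1 fell by 0.92 ± 0.06 (SE) on the log2 scale with HDAC1 (edgeR adjusted p = 2.03e-11) and by 1.21 ± 0.06 with empty vector (edgeR adjusted p = 3.46e-13). All 6 TGFB1 libraries came to nearly the same level, 172 to 180.3 CPM, whichever plasmid they carried. Endothelium and leukocytes also carry these receptors. The 7 of 10 endothelial markers with a row summed to 20.91 to 23.58 CPM with HDAC1 and TGFB1, 27.18 to 31.66 CPM with empty vector and TGFB1, 24.97 to 27.55 CPM with HDAC1 and vehicle, and 22.79 to 27.87 CPM with empty vector and vehicle. Of these 7 genes, 2 were called higher and 5 lower with TGFB1 in HDAC1 cells (median log2 fold change -0.85). In empty vector cells 1 was called higher and 1 lower (median 0.55). The shares called of all genes were 49.1% and 50.9%. The sum of Cd68 and Csf1r was lower with TGFB1, at 2.43 to 3.53 CPM with HDAC1 and TGFB1 against 5.42 to 8.29 CPM with HDAC1 and vehicle, and at 3.57 to 5.01 CPM with empty vector and TGFB1 against 9.28 to 10.6 CPM with empty vector and vehicle. The part of these markers in the result was not tested.

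Alcam (ENSRNOG00000001989), whose product binds CD6 and itself, had the lowest counts of the 8 genes, 64 to 115 reads per library with TGFB1. It was at 3.59, 2.61 and 3.40 CPM with HDAC1 and TGFB1, against 18.02, 11.6 and 10.8 CPM with HDAC1 and vehicle. With empty vector it was at 3.44, 4.92 and 3.18 CPM with TGFB1, against 13.3, 14.0 and 10.3 CPM with vehicle. The groups lay wide apart, although the spread within groups was larger than for the other genes. It was 4.28-fold lower with TGFB1 in HDAC1 cells (log2 fold change -2.10 ± 0.22 SE, adjusted p by edgeR = 5.31e-07) and 3.22-fold lower in empty vector cells (-1.69 ± 0.21 SE, edgeR adjusted p = 4.58e-06). Its log2 change was larger in size than that of 97.5% and 96.2% of the genes tested.

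Ncam1 (ENSRNOG00000031890), the neural cell adhesion molecule, was the gene raised most. It was at 253, 269 and 265 CPM with HDAC1 and TGFB1, against 67.8, 77.8 and 80.4 CPM with HDAC1 and vehicle. In empty vector cells it was at 317, 281 and 288 CPM with TGFB1, against 93.4, 102.9 and 90.8 CPM with vehicle. No vehicle library came near a TGFB1 library. Ncam1 rose 3.49-fold with HDAC1 (log2 fold change 1.80 ± 0.07 SE, adjusted p by edgeR = 5.64e-14) and 3.09-fold with empty vector (1.63 ± 0.07 SE, edgeR adjusted p = 2.27e-13).

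Cdh2 (ENSRNOG00000015602), N-cadherin, was the one cadherin of the 8 genes that rose. It was at 182, 183 and 181 CPM with HDAC1 and TGFB1, against 78.1, 82.6 and 80.8 CPM with HDAC1 and vehicle. In empty vector cells it was at 181, 178 and 176 CPM with TGFB1, against 82.7, 87.6 and 81.2 CPM with vehicle. The libraries formed a high and a low cluster, divided by TGFB1 and not by the plasmid. The rise was 2.26-fold with HDAC1 (log2 fold change 1.18 ± 0.06 SE, adjusted p by edgeR = 5.90e-13) and 2.13-fold with empty vector (1.09 ± 0.06 SE, edgeR adjusted p = 1.97e-12).

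The other cadherins fell, each by less than 2-fold. Cdh13 (ENSRNOG00000014371), T-cadherin, was at 80.8, 94.1 and 83.8 CPM with HDAC1 and TGFB1 against 140.5, 144 and 140.2 CPM with HDAC1 and vehicle, and at 102.7, 97.6 and 96.4 CPM with empty vector and TGFB1 against 177, 160.2 and 156 CPM with empty vector and vehicle. Every TGFB1 library was below every vehicle library. It fell by 0.71 ± 0.07 (SE) on the log2 scale with HDAC1 (edgeR adjusted p = 1.95e-08) and by 0.73 ± 0.07 with empty vector (edgeR adjusted p = 1.06e-08).

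Cdh3 (ENSRNOG00000020129), P-cadherin, was at 110.8, 110.6 and 108.7 CPM with HDAC1 and TGFB1, against 139, 144 and 152 CPM with HDAC1 and vehicle. In empty vector cells it was at 127, 116 and 114 CPM with TGFB1, against 169, 162 and 155 CPM with vehicle. The groups did not overlap in either transfection. It was 1.32-fold lower with TGFB1 in HDAC1 cells (log2 fold change -0.40 ± 0.06 SE, adjusted p by edgeR = 2.03e-05) and 1.36-fold lower in empty vector cells (-0.44 ± 0.06 SE, edgeR adjusted p = 4.22e-06). The epithelial marker sum moved the other way in empty vector cells, at 1362 to 1537 CPM with TGFB1 against 1148 to 1250 CPM with vehicle. In HDAC1 cells it was at 1689 to 1763 CPM with TGFB1 against 1438 to 1692 CPM with vehicle, which overlap. The median log2 fold change of its 4 genes was -0.39 with HDAC1 (1 called higher, 1 lower) and -0.23 with empty vector (2 higher, 1 lower). Of all genes, 49.1% and 50.9% were called. The sum and this median thus differed in direction.

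Cdh11 (ENSRNOG00000013481), the mesenchymal cadherin-11, had the smallest fall. It was at 53.1, 53.0 and 49.0 CPM with HDAC1 and TGFB1, against 60.7, 68.0 and 66.1 CPM with HDAC1 and vehicle. With empty vector it was at 61.6, 51.5 and 63.8 CPM with TGFB1, against 76.7, 82.4 and 66.2 CPM with vehicle. The gap between the groups was narrow, but they did not overlap. It was 1.26-fold lower with TGFB1 in HDAC1 cells (log2 fold change -0.33 ± 0.09 SE, adjusted p by edgeR = 0.00370) and 1.27-fold lower in empty vector cells (-0.35 ± 0.09 SE, edgeR adjusted p = 0.00204). Its change and that of Cdh3 were close to the middle of all genes in size, larger than those of 52.6% to 62.0% of the genes tested. The fibroblast marker sum moved the other way, at 18040 to 21350 CPM with TGFB1 against 11670 to 13740 CPM with vehicle in HDAC1 cells, and 20740 to 25280 CPM with TGFB1 against 14790 to 16860 CPM with vehicle in empty vector cells. Its 8 genes did not all move alike. With TGFB1, 4 were called higher and 2 lower in HDAC1 cells (median log2 fold change 0.42). In empty vector cells 4 were called higher and 1 lower (median 0.31). The shares called of all genes were 49.1% and 50.9%.

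**Figure D1:**
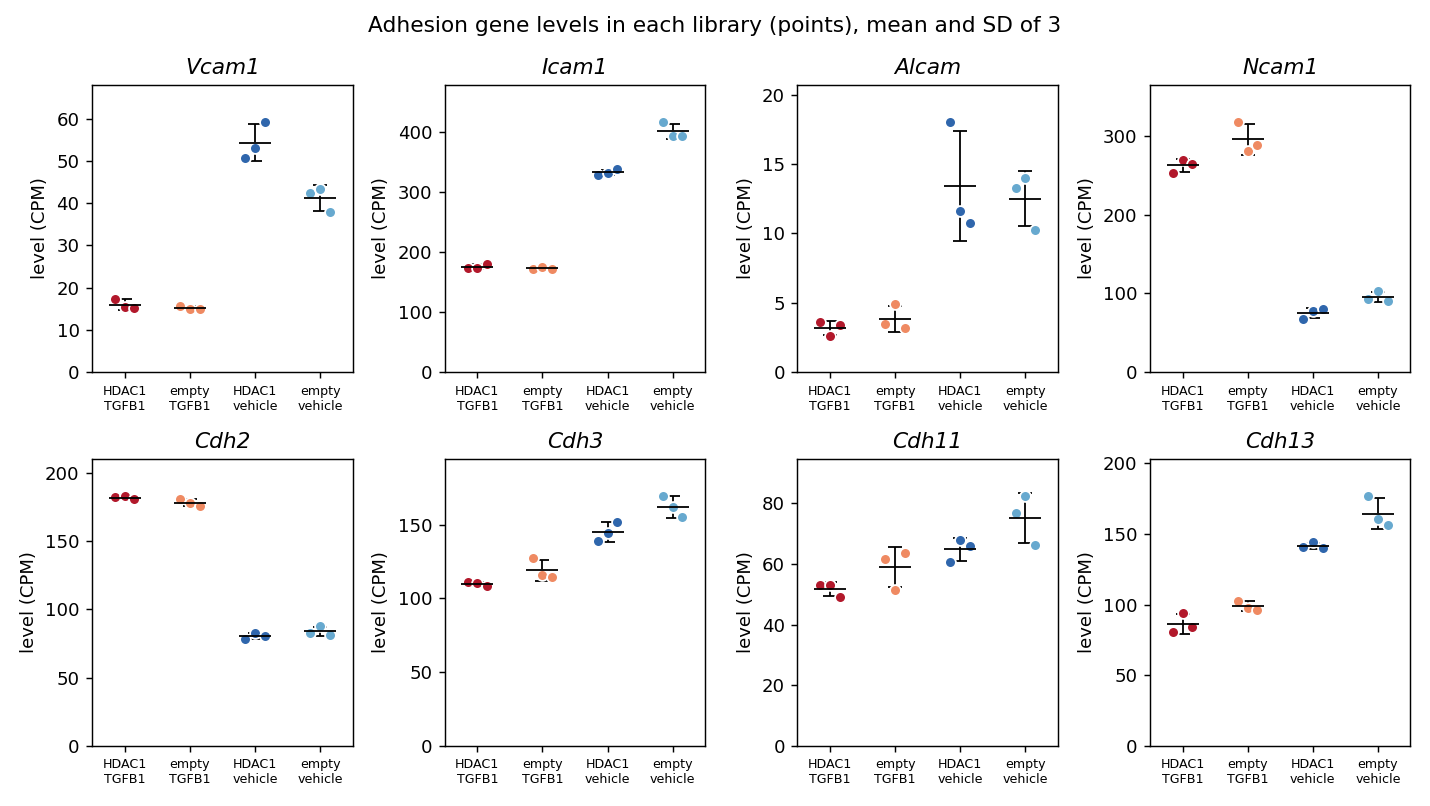
Level of each gene in CPM (vertical axis, from 0) in the 4 groups, with 1 point per library, the mean as a horizontal line and the SD of 3 libraries as error bars. Ncam1 and Cdh2 are high in both TGFB1 groups, and the other 6 genes are high in both vehicle groups.

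HDAC1 was compared with empty vector in vehicle next. Vcam1 rose and Icam1, Ncam1 and Cdh13 fell, all by less than 1.5-fold, and Alcam, Cdh2, Cdh3 and Cdh11 were not called. The 4 calls of 8 stand against 14.0% of all genes tested (6.64% higher and 7.32% lower). The median log2 fold change of the 8 genes was -0.19, against -0.01 over all genes. The HDAC1 comparisons and the TGFB1 comparisons share their libraries, the empty vector vehicle libraries among them, so their values are given side by side.

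Vcam1, at 50.7 to 59.1 CPM with HDAC1 and 37.8 to 43.4 CPM with empty vector, was 1.32-fold higher with HDAC1 (log2 fold change 0.40 ± 0.08 SE, edgeR adjusted p = 0.00151). Icam1 went the other way, at 333 ± 4.40 CPM with HDAC1 and 402 ± 13.0 CPM with empty vector (SD, n = 3 each), a fall by 0.27 ± 0.05 (SE) on the log2 scale (edgeR adjusted p = 0.00202). So these receptors for leukocyte integrins, which fell together with TGFB1, differed in direction with HDAC1. For both, the 3 HDAC1 libraries did not overlap the 3 empty vector libraries, as for 32.5% of the genes tested.

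Ncam1 was at 75.3 ± 6.62 CPM with HDAC1 and 95.7 ± 6.37 CPM with empty vector (SD, n = 3 each), 1.27-fold lower with HDAC1 (log2 fold change -0.35 ± 0.07 SE, adjusted p by edgeR = 0.00273), and its groups did not overlap. Cdh13 was at 142 ± 2.13 CPM with HDAC1 and 164 ± 10.8 CPM with empty vector, a fall by 0.22 ± 0.07 (SE) on the log2 scale (edgeR adjusted p = 0.0308). The Cdh13 call rested on single libraries: it ended without replicate 1 (-0.16, edgeR adjusted p = 0.202) or replicate 2 (-0.21, adjusted p = 0.0654) of empty vector with vehicle, without replicate 1 (-0.20, adjusted p = 0.119) or replicate 3 (-0.19, adjusted p = 0.117) of the HDAC1 vehicle group, and with the heart and brain covariate (-0.18, adjusted p = 0.119). Replicate 1 of empty vector with vehicle had the highest Cdh13 level (177 CPM) and the lowest heart and brain sum. The Vcam1, Icam1 and Ncam1 calls held in these fits.

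Cdh3 was at 145 ± 6.77 CPM with HDAC1 and 162 ± 7.23 CPM with empty vector. Its log2 fold change was -0.16 with a 95% interval of -0.29 to -0.03 (edgeR adjusted p = 0.0892), and DESeq2 called it (adjusted p = 0.0491). Cdh11 had a log2 fold change of -0.21 with an interval of -0.39 to -0.03 (edgeR adjusted p = 0.112), and it was called without replicate 3 of empty vector with vehicle (-0.28, edgeR adjusted p = 0.0464). Cdh2 was at 80.5 ± 2.25 CPM with HDAC1 and 83.8 ± 3.35 CPM with empty vector (log2 fold change -0.06, interval -0.18 to 0.06). Alcam had a log2 fold change of 0.12 with a wide interval of -0.27 to 0.52, and the value was -0.14 without replicate 1 of the HDAC1 vehicle group, its highest library.

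With TGFB1 present, edgeR called 0 of the 8 genes between HDAC1 and empty vector, against 6.53% of all genes tested (2.17% higher and 4.36% lower). At an unadjusted p under 0.05 there were 3 (Ncam1, Cdh11 and Cdh13), and DESeq2 also called 0. Vcam1 averaged 16.0 ± 1.21 CPM with HDAC1 and 15.2 ± 0.381 CPM with empty vector (SD, n = 3 each), with a log2 fold change of 0.07 and a 95% interval of -0.12 to 0.26. Icam1 averaged 176 ± 3.73 CPM with HDAC1 and 174 ± 2.08 CPM with empty vector, a log2 fold change of 0.02 with an interval of -0.10 to 0.14. The values in vehicle, 0.40 and -0.27, lie outside these intervals; the test of that difference is the interaction, which was not called.

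Ncam1 averaged 262 ± 8.27 CPM with HDAC1 and 295 ± 19.1 CPM with empty vector (log2 fold change -0.17, interval -0.32 to -0.02, edgeR adjusted p = 0.152). Cdh13 averaged 86.2 ± 6.97 CPM with HDAC1 and 98.9 ± 3.36 CPM with empty vector (-0.20, interval -0.34 to -0.06, edgeR adjusted p = 0.0821), and it was called without replicate 2 of the HDAC1 TGFB1 group (-0.27, edgeR adjusted p = 0.0292). For both genes and for Cdh3 all HDAC1 libraries lay below all empty vector libraries, as in vehicle; 28.8% of the genes tested did not overlap here. The log2 fold changes of Cdh3, Cdh11, Cdh2 and Alcam were -0.11, -0.19, 0.03 and -0.29, and their edgeR adjusted p ran from 0.200 to 0.792.

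**Figure D2:**
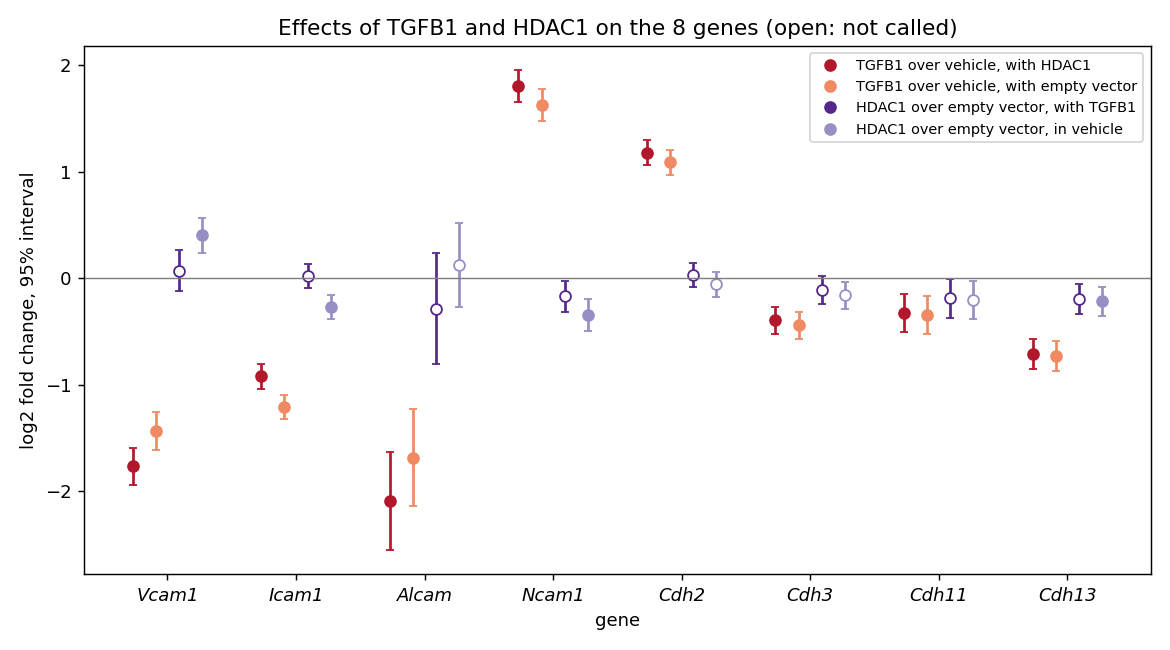
Log2 fold changes of the 8 genes (vertical axis) with 95% intervals for TGFB1 over vehicle and HDAC1 over empty vector, each in both settings, with filled points for genes called by edgeR and open points for genes not called. The TGFB1 effects reach from -2.10 to 1.80, and the HDAC1 effects from -0.35 to 0.40.

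Whether the TGFB1 effect differed between HDAC1 and empty vector cells was tested as the interaction. By edgeR, 0 of 8 genes were called, against 0.479% of all genes (0.137% higher and 0.342% lower); 2 had an unadjusted p under 0.05 (Vcam1 and Icam1), and DESeq2 called 1. That gene was Icam1, whose fall with TGFB1 was smaller in HDAC1 cells, -0.92 against -1.21 in empty vector cells (difference 0.29 ± 0.08 SE, edgeR adjusted p = 0.0908, DESeq2 adjusted p = 0.000175). Over the alternatives the Icam1 adjusted p ran from 0.000175 to 0.874. For Vcam1 the fall was larger in HDAC1 cells, -1.77 against -1.44 (difference -0.33 ± 0.12 SE, edgeR adjusted p = 0.225), and no alternative called it. The differences of the other 6 genes were between -0.41 and 0.18, with edgeR adjusted p of 0.487 to 0.971.

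The order of levels over the groups followed from this. Vcam1 was highest with HDAC1 and vehicle, then with empty vector and vehicle, and the TGFB1 groups overlapped. Icam1 was highest with empty vector and vehicle, then with HDAC1 and vehicle, and its TGFB1 groups overlapped. Ncam1 ran from empty vector with TGFB1 down through HDAC1 with TGFB1 and empty vector with vehicle to HDAC1 with vehicle, with no overlap between neighbours, although the step between the TGFB1 groups was not called. Cdh13 ran from empty vector with vehicle through HDAC1 with vehicle and empty vector with TGFB1 to HDAC1 with TGFB1, also without overlap. Its step between the TGFB1 groups was not called, and its call in vehicle rested on single libraries. Cdh3 had the same order without overlap, although its steps between plasmids were not called. For Cdh2, Alcam and Cdh11, HDAC1 and empty vector overlapped within each treatment.

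The 3 genes named above as also expressed in heart or brain were set beside the heart and brain transcripts. The sum of the 38 genes was lower with HDAC1 and TGFB1 (184.5 to 200.3 CPM) than with empty vector and TGFB1 (537.1 to 640.8 CPM), and 2 of the 3 genes were lower in the same direction. Ncam1 was at 253 to 269 CPM with HDAC1 and TGFB1 and 281 to 317 CPM with empty vector and TGFB1, and Cdh13 at 80.8 to 94.1 CPM and 96.4 to 102.7 CPM, both without overlap, as for 28.8% of the genes tested. Cdh2 was at 181 to 183 CPM and 176 to 181 CPM in those groups. Cdh3, not among the 3 genes, was also lower there without overlap. In vehicle, where the sums overlapped, Ncam1 and Cdh13 were lower with HDAC1 too (log2 fold changes -0.35 and -0.22). Replicate 1 of empty vector with vehicle, with a sum of 85.7 CPM, had 93.4 CPM of Ncam1 and 82.7 CPM of Cdh2, between the values of the other replicates of its group, and 177 CPM of Cdh13, above the 160.2 and 156 CPM of the other replicates. With the sum as a covariate the TGFB1 effect on Ncam1 was 1.85 with HDAC1 and 1.58 with empty vector, on Cdh2 it was 1.20 and 1.07, and on Cdh13 it was -0.78 and -0.67, all called by edgeR. The HDAC1 effect with TGFB1, not called in either fit, was then -0.10 for Ncam1 and -0.28 for Cdh13. In these fits the covariate cannot be told apart from TGFB1 or, for the HDAC1 effect with TGFB1, from the plasmid. Without that replicate, the TGFB1 effect with empty vector was also called for all 8 genes.

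**Figure D3:**
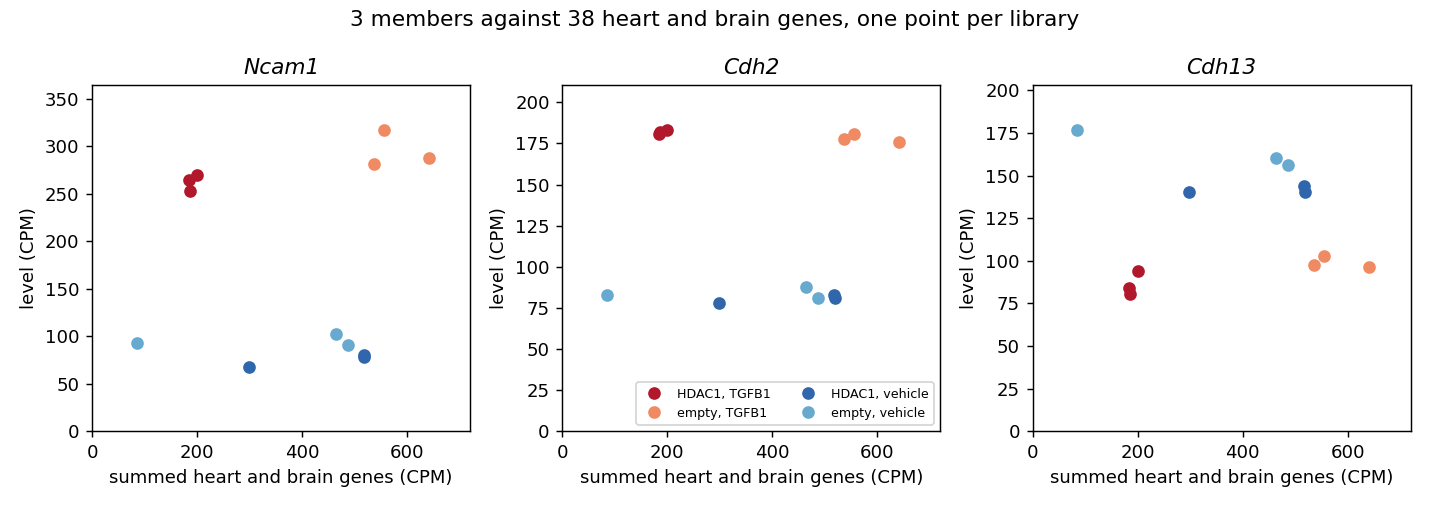
Level of Ncam1, Cdh2 and Cdh13 in CPM (vertical axis) against the summed CPM of 38 heart and brain genes (horizontal axis), with 1 point per library and colours for the groups. With TGFB1, Ncam1 and Cdh13 are lower in the HDAC1 libraries, where the sum is 184.5 to 200.3 CPM, than in the empty vector libraries, where it is 537.1 to 640.8 CPM, while Cdh2 overlaps between them.

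The molecules that work with cadherins were read from fixed lists, made up with earlier results of these data known. Of 12 catenins and cadherin anchors, 4 rose, 4 fell and 4 were not called with TGFB1 in HDAC1 cells (median log2 fold change 0.04), and 3 rose, 2 fell and 7 were not called in empty vector cells (0.13), where 49.1% and 50.9% of all genes were called. Ctnnd1, p120 catenin, which binds the cadherin tail and holds cadherins at the surface, rose to 562 ± 14.6 CPM with HDAC1 and TGFB1, against 286 ± 3.41 CPM with HDAC1 and vehicle (log2 fold change 0.98, edgeR adjusted p = 1.16e-10). In empty vector cells it was at 552 ± 49.2 CPM with TGFB1 against 301 ± 10.6 CPM with vehicle (0.88, edgeR adjusted p = 6.25e-10). Its relative Arvcf fell (log2 fold change -0.65 in HDAC1 cells and -0.38 in empty vector cells), as did Ctnnal1, alpha-catulin (-0.52 and -0.76). Ctnnb1, beta-catenin, rose by a log2 fold change of 0.20 in HDAC1 cells (edgeR adjusted p = 0.00519); with the heart and brain covariate this call ended (adjusted p = 0.0545), and the list then had 3 calls instead of 8. Without replicate 3 of the HDAC1 TGFB1 group it had 4. Pkp2, plakophilin 2, rose in empty vector cells (0.36), and this call ended without replicate 1 of empty vector with vehicle (0.26, adjusted p = 0.0706) and with the covariate (0.26, adjusted p = 0.0952). Between HDAC1 and empty vector edgeR called 0 of the 12 in vehicle (1 at an unadjusted p under 0.05, 0 by DESeq2) and 0 with TGFB1 (4 and 1).

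Of 24 other cadherins in the list, 11 had a row and were tested. With TGFB1, 2 rose and 4 fell in HDAC1 cells (median -0.02) and 3 rose and 2 fell in empty vector cells (-0.07), against 49.1% and 50.9% of all genes called. The protocadherin Pcdh19 rose in both (0.97 and 0.95), and so did Pcdh18 (0.87 and 0.46), while Pcdh7 fell (-0.57 and -0.52). Cdh5, the cadherin of endothelium, was at 0.278 ± 0.105 CPM with HDAC1 and TGFB1 against 1.23 ± 0.447 CPM with HDAC1 and vehicle, close to the limit of detection. With HDAC1, 1 of 11 fell in vehicle, where 14.0% of all genes were called; this was Pcdh18 (-0.43), whose call ended without replicate 2 or 3 of empty vector with vehicle (-0.37 and -0.38) or replicate 1 of the HDAC1 vehicle group (-0.34). With HDAC1 and TGFB1, 1 of 11 fell, where 6.53% of all genes were called; this was Celsr2 (-1.07), whose call ended in 9 of 13 alternatives.

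Of 28 other immunoglobulin adhesion molecules, 22 were tested. With TGFB1, 4 rose and 12 fell in HDAC1 cells (median -0.47), and 6 rose and 6 fell in empty vector cells (0.24), against 49.1% and 50.9% of all genes called. In HDAC1 cells 3 rose and 6 fell without replicate 3 of the HDAC1 vehicle group, and 3 rose and 7 fell without replicate 1 or without replicate 2 of the HDAC1 TGFB1 group. With the heart and brain covariate these counts were 3 and 5 in HDAC1 cells and 3 and 5 in empty vector cells, and without replicate 1 of empty vector with vehicle 4 rose and 5 fell in empty vector cells. For TGFB1 over vehicle, heart and brain genes had medians of -1.25 and -1.07 in HDAC1 cells, and 0.71 and 0.77 in empty vector cells. Their part in these counts was not tested. Jam2, a junctional adhesion molecule of endothelium, fell to 2.39 ± 0.243 CPM with HDAC1 and TGFB1, against 9.38 ± 1.04 CPM with HDAC1 and vehicle (log2 fold change -1.98, edgeR adjusted p = 3.57e-10), and to 2.54 ± 0.228 CPM with empty vector and TGFB1, against 8.31 ± 0.347 CPM with empty vector and vehicle (-1.71). Nectin3, which starts cell contacts together with cadherins, rose (0.54 in HDAC1 cells and 0.93 in empty vector cells), while Cadm1, a nectin-like molecule, fell (-0.58 and -0.53). Nectin4 was at 1.44 ± 0.198 CPM with empty vector and TGFB1 against 0.157 ± 0.0233 CPM with empty vector and vehicle (edgeR adjusted p = 3.33e-06). The vehicle level was close to the limit of detection, so the size of this rise is uncertain.

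Between HDAC1 and empty vector in vehicle, 2 of the 22 rose and 3 fell, where 6.64% of all genes were higher and 7.32% lower. Nectin3 was at 56.4 ± 3.40 CPM with HDAC1 and 39.0 ± 1.35 CPM with empty vector (log2 fold change 0.53 ± 0.07 SE, edgeR adjusted p = 6.25e-05). Nectin1 (-0.57), Nectin2 (-0.45) and Cadm1 (-0.49, edgeR adjusted p = 0.000103) fell. With TGFB1, 7 of the 22 fell and 0 rose, where 4.36% of all genes were lower. Of the 22, 1 was called with the heart and brain covariate, and 2 were called without any 1 of the HDAC1 TGFB1 replicates or without replicate 1 or 3 of empty vector with TGFB1. Cadm1 was at 40.4 ± 1.03 CPM with HDAC1 and TGFB1 against 58.9 ± 3.31 CPM with empty vector and TGFB1 (-0.54 ± 0.07 SE, edgeR adjusted p = 0.000291), and Nectin2 fell by 0.51 on the log2 scale, with an adjusted p of 0.0546 under the covariate. The neural molecules L1cam and Cadm2, averaging under 2 CPM in every group, also fell (-1.52 and -1.69). Their log2 fold changes were -0.46 and -0.21 with the covariate and were then not called. Heart and brain genes had medians of -1.57 each in this comparison. Here the covariate and the plasmid cannot be told apart, and the part of heart and brain transcripts in the result was not tested. The Cadm2 call also ended without any 1 of the 6 libraries, and the L1cam call without any 1 of them other than replicate 2 of empty vector with TGFB1.

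Of the genes for binding partners, 4 of 11 were tested. With TGFB1, 1 rose and 0 fell in HDAC1 cells, and 1 rose and 1 fell in empty vector cells (1 and 0 without replicate 1 of empty vector with vehicle or replicate 3 of empty vector with TGFB1), against 49.1% and 50.9% of all genes called. Itgb1, the integrin beta 1 chain that pairs with alpha 4 in the receptor for VCAM1, rose with TGFB1 (log2 fold change 0.77 in HDAC1 cells, edgeR adjusted p = 1.15e-09, and 0.55 in empty vector cells, edgeR adjusted p = 1.35e-07). It was at 2167 ± 71.1 CPM with HDAC1 and TGFB1 against 1875 ± 64.9 CPM with empty vector and TGFB1 (0.21, edgeR adjusted p = 0.0391), a call that ended in 8 of 13 alternatives. Itgax, the alpha chain of a leukocyte integrin, was also called there (0.44, edgeR adjusted p = 0.0149), and that call ended with the covariate (0.29, adjusted p = 0.388), without replicate 1 (0.39, adjusted p = 0.0839) or 3 (0.38, adjusted p = 0.0872) of the HDAC1 TGFB1 group and without replicate 3 of empty vector with TGFB1 (0.35, adjusted p = 0.0565). Between HDAC1 and empty vector in vehicle edgeR called 0 of the 4 (1 at an unadjusted p under 0.05, 0 by DESeq2). Itga4, Itgal, Itgam and Itgb2 had no row under their symbols and were not analysed here.

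Of 9 sheddases, presenilins and modifying enzymes tested, 2 rose and 5 fell with TGFB1 in both transfections (median -0.30 in HDAC1 cells and -0.44 in empty vector cells), against 49.1% and 50.9% of all genes called. Adam17, the protease that sheds VCAM1 and other surface proteins, was at 99.0 ± 1.99 CPM with HDAC1 and TGFB1 against 139 ± 3.64 CPM with HDAC1 and vehicle, and at 99.2 ± 6.38 CPM with empty vector and TGFB1 against 159 ± 2.12 CPM with empty vector and vehicle (log2 fold changes -0.49 and -0.68). Adam15 fell by 0.85 and 0.89, and Psen2, a subunit of gamma-secretase, fell by 1.07 and 1.30. Furin, which cleaves the propeptides of cadherins, ADAM proteases and TGFB1, rose to 511 ± 29.3 CPM with HDAC1 and TGFB1, against 179 ± 13.8 CPM with HDAC1 and vehicle (1.51, edgeR adjusted p = 7.63e-13), and by 1.33 in empty vector cells. With HDAC1, Adam15 fell in vehicle (-0.34, edgeR adjusted p = 0.000789) and with TGFB1 (-0.30, edgeR adjusted p = 0.00817); the second call ended without replicate 1 of the HDAC1 TGFB1 group (-0.27, adjusted p = 0.0583) and with the covariate (adjusted p = 0.0836). Adam17 fell in vehicle (-0.19), a call that ended in 7 of 13 alternatives.

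The transcription factors known for repressing E-cadherin did not move as one. Of 8 in the list, 7 were tested, and Snai1 had no row under its symbol and was not analysed here. Of the 7, 4 rose and 1 fell with TGFB1 in each transfection (medians 0.24 in HDAC1 cells and 0.16 in empty vector cells), against 49.1% and 50.9% of all genes called. Snai2, the zinc finger repressor SLUG, was the one that fell, to 10.8 ± 0.693 CPM with HDAC1 and TGFB1 against 20.7 ± 0.592 CPM with HDAC1 and vehicle, and to 6.86 ± 1.62 CPM with empty vector and TGFB1 against 19.9 ± 1.13 CPM with empty vector and vehicle (log2 fold changes -0.95 and -1.52, edgeR adjusted p = 7.72e-07 and 1.64e-09). Twist1 rose (0.43 and 0.59), as did Tcf3 (0.36 and 0.42) and Tcf4 (0.35 and 0.37). With TGFB1, Snai2 was 0.64 higher on the log2 scale in HDAC1 than in empty vector cells (edgeR adjusted p = 0.00567), and this call ended with the covariate (0.58, adjusted p = 0.130). In vehicle edgeR called 0 of the 7 between HDAC1 and empty vector, with 0 at an unadjusted p under 0.05 and 0 by DESeq2. The interaction gave 0 calls in all 6 lists by edgeR, with 19 genes at an unadjusted p under 0.05 and 3 called by DESeq2.

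**Figure D4:**
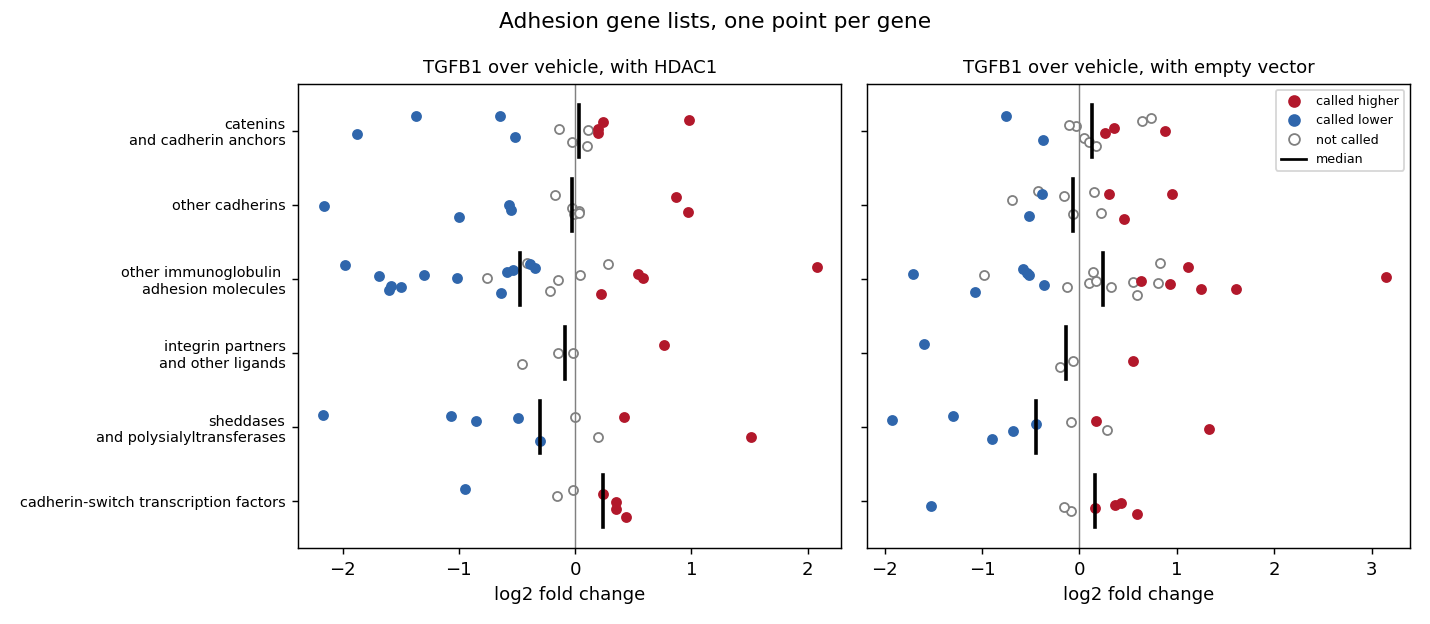
Log2 fold change with TGFB1 over vehicle (horizontal axis) of each tested gene of the 6 lists (rows), in HDAC1 cells on the left and empty vector cells on the right, with red points for genes called higher, blue for lower, open for not called, and a black line for the list median. Furin at 1.51 and 1.33 lies far to the right of its list, and Snai2 at -0.95 and -1.52 far to the left of its own. Ctnnd1 stands apart in HDAC1 cells, at 0.98 with Pkp4 next at 0.24. In empty vector cells Ctnnd1 is at 0.88, with Ctnnd2 at 0.73 and Ctnna2 at 0.65 near it, both not called.

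The genes whose levels over the 12 libraries were most like those of the 8 were taken as a description, by Pearson correlation of log2 CPM among 10161 genes. Vehicle and TGFB1 libraries form separate clusters, so the values over 12 libraries mainly show the TGFB1 step, and those within the 6 vehicle and the 6 TGFB1 libraries are given too. Each set of 6 holds both plasmids, so values within it also contain any step between HDAC1 and empty vector. Nedd9 was most like Ncam1 (0.998 over 12 libraries, 0.962 within vehicle and 0.963 within TGFB1). Klhl13 was most like Cdh2 (0.998, 0.785 and 0.834), P2rx5 most like Cdh13 (0.995, 0.971 and 0.938) and Axl most like Cdh3 (0.992, 0.971 and 0.900). Inhbb was most like Icam1 (0.996, 0.968 and 0.406) and Sh3kbp1 most like Vcam1 (0.990, 0.923 and 0.040), so the likeness of these genes lay in the vehicle libraries and in the TGFB1 step. Osbpl9 was most like Alcam (0.991, 0.962 and 0.860) and Cavin2 most like Cdh11 (0.971, 0.996 and 0.850). Among the 8 genes themselves, Ncam1 and Cdh3 had correlations of 0.893 within vehicle and 0.920 within TGFB1, although TGFB1 moved them in opposite directions. Both genes were lower with HDAC1 without overlap in each set, which enters these values. Pairs differed, and Icam1 and Cdh11 had 0.724 within vehicle and -0.8125 within TGFB1.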

How the data were processed

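Poly(A) RNA of 12 libraries was measured. Raw counts per gene were deposited by the authors, together with normalized counts, a signal that the authors made by dividing each count column by 1 constant (checked against the counts) and that keeps the 14275 genes with at least 100 counts in all. Per the submitters' processing notes, Trim Galore 0.6.7, featureCounts of Subread 2.0.1 and DESeq2 1.44 were used; these notes name a mouse build, whereas the identifiers are rat Ensembl genes. Strand use, the aligner, the build behind them and the handling of reads that fit several genes are not given in the sources used here, so genes with copies or overlapping partners are uncertain. Symbols came from the normalized table.

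Counts were filtered with filterByExpr and scaled with TMM in edgeR 4.0.16 (R 4.3.3). A robust quasi-likelihood model with 1 mean per group was fitted to all 12 libraries (8 residual degrees of freedom, common biological coefficient of variation 7.61%). Tests were two-sided and adjusted by Benjamini-Hochberg over the 14601 genes tested, and genes were called at an adjusted p under 0.05. The SE is the log2 fold change divided by the square root of F, and 95% intervals use the model's degrees of freedom. The steps were tested on simulated data. Correlations use log2 CPM with a prior count of 2, among genes with a mean of at least 2.

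Alternatives were DESeq2 1.42.0 (size factors or test), no filter, a mean CPM of at least 1, the 2 groups compared, a replicate block, a heart and brain covariate and leaving out each library. Named list genes are up to 4 calls with the smallest adjusted p per list and comparison. The genes and lists were chosen with earlier results of these data known.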

Additional observations from a re-analysis of the deposited data

How the results depend on the processing

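All 8 genes were called for both TGFB1 effects under every alternative run, and no called gene changed direction. For HDAC1 in vehicle 4 were called, and 3 to 5 without single libraries. For HDAC1 with TGFB1 the count was 0 to 1 without single libraries, and for the interaction DESeq2 called 1. The values that turned sign belong to genes that were not called. With the heart and brain covariate these were Icam1 for HDAC1 with TGFB1 (-0.024), and Cdh3 and Cdh13 in the interaction (-0.015 and -0.11). Leaving out single libraries gave -0.14 to 0.28 for Alcam with HDAC1 in vehicle, and in the interaction -0.063 to 0.11 for Cdh11 and -0.062 to 0.057 for Cdh13.

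Over all genes, 2038 were called for HDAC1 in vehicle (1144 to 2166 without single libraries), 954 for HDAC1 with TGFB1 (237 to 1236) and 70 for the interaction (3 to 257). With the covariate there were 103 for HDAC1 with TGFB1 and 0 for the interaction. The interaction gave 245 calls by DESeq2 and 479 without a filter. The cause of these shifts was not tested. Alcam had 64 to 115 reads per library with TGFB1.

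Replicate numbers did not clearly pair the libraries: of 18 same-numbered pairs, 2 had a correlation of deviations over 0.1 (-0.0875 to 0.118). Of 36 other-numbered pairs, 0 did (-0.115 to 0.0921). With 3 libraries per group this check cannot exclude a pairing. A fit with the replicate number as a block called 4, 0, 8, 8 and 0 of the 8 genes in the 5 comparisons, the same numbers as without it, and 1790 genes for HDAC1 in vehicle and 784 for HDAC1 with TGFB1.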
